A study of Mus musculus with 3 samples.

Results

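The immediate early response genes described here were 10 genes, *Fos*, *Fosb*, *Jun*, *Junb*, *Jund*, *Atf3*, *Egr1*, *Nr4a1*, *Ier2* and *Dusp1*. They were chosen by symbol, and each matched 1 of the 31053 genes in the count tables. They were measured by droplet single-cell RNA sequencing of live-sorted cells from glioblastoma-bearing mouse brain, in 3 libraries. The hosts were female C57BL/6 mice aged 6 to 8 weeks, implanted in the right striatum with BT0309, a line of brain tumor-initiating cells from Trp53+/- Nf1+/- (NPcis) mice that carries luciferase and GFP. The vehicle 2 library came from mice given saline. The niacin 1 and niacin 2 libraries came from mice given niacin (vitamin B3) intraperitoneally at 100 mg/kg each day from day 7. All groups therefore carried the same tumor line, and no tumor-free brain was among these libraries. A 2 mm section around the implantation site was taken 4 weeks after implantation. The tissue was Dounce-homogenized, run through a Percoll gradient and sorted before capture. Every library was handled in this way, so transcription in the brain and transcription during handling cannot be told apart. Several brains were pooled into each library, the tumor model rests on 1 cell line, and the spread between libraries is a spread between pools.

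Immediate early response genes are transcribed soon after a cell is stimulated, from promoters that need no newly made protein to fire. Growth factor, calcium and stress signals reach them through MAP kinases, serum response factor and CREB. Their products are mostly transcription factors: FOS and JUN family proteins pair to form AP-1, ATF3 is a CREB-family factor that can also pair with JUN proteins, EGR1 is a zinc finger factor, and NR4A1 is an orphan nuclear receptor. DUSP1 works in the other direction, as a phosphatase that switches MAP kinases off, while IER2 is a short nuclear protein of the same response. In monocytes NR4A1 has a further role, since the nonclassical (Ly6C-low) blood monocytes that patrol vessels depend on it for their development and survival.

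CREB binds the cyclic AMP response element, whose half-site is TGACG. The 250 bases before the RefSeq start of 4 members are shown as examples of a FOS family gene, a JUN family gene, the nuclear receptor and the phosphatase, whose levels by class are described below. Capitals mark TGACG on either strand, so that a site on the other strand reads CGTCA, and a full TGACGTCA counts as 2 overlapping half-sites. The windows lie at chr12:85473640-85473889 (plus strand) for *Fos*, chr8:84978749-84978998 (minus) for *Junb*, chr15:101266596-101266845 (plus) for *Nr4a1* and chr17:26508473-26508722 (minus) for *Dusp1* in GRCm38.p6.
Fos: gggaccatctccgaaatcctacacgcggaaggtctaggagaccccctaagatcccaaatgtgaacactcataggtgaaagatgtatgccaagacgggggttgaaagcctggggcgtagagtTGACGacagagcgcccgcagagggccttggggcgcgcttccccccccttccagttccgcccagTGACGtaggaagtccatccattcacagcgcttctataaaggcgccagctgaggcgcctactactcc
Junb: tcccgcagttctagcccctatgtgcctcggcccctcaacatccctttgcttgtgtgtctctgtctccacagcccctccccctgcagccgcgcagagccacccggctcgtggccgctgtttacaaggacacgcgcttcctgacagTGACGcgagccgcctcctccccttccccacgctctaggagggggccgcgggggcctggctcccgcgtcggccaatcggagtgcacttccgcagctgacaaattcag
Nr4a1: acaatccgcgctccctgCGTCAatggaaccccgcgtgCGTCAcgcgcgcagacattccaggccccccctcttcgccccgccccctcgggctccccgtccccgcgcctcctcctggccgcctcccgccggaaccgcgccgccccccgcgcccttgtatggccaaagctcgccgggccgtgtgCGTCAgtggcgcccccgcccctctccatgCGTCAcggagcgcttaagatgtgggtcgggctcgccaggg
Dusp1: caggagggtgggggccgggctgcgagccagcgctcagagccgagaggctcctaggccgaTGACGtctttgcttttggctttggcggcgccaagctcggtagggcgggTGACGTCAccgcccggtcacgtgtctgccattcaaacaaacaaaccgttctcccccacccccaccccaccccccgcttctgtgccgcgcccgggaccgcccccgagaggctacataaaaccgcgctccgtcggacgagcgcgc
The *Nr4a1* window held 4 half-sites, *Dusp1* 3, *Fos* 2 and *Junb* 1. At least 1 half-site lay in 6 of the 8 member promoters that RefSeq's table held, against 17.8% of 32851 mouse promoters of the same length. The *Jund* window, which held none, ended at chr8:70697738 and so did not border the gene's annotated start at 70698949. The windows of *Nr4a1*, *Dusp1* and *Atf3* lay inside the annotated genes. They did not border the annotated starts at 101254269, 26562128 and 191218039 either. The full element was in 1 of 8 (1.55% of all), and neither the AP-1 site TGANTCA (6.75% of all) nor a CArG box, the serum response factor site (1.47% of all), was in these windows. A match describes these letters only. The other 6 genes lie on chromosome 1 (*Atf3*), 4 (*Jun*), 7 (*Fosb*), 8 (*Jund* and *Ier2*) and 18 (*Egr1*).

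The libraries held 8301228, 9373321 and 10359526 unique molecular identifiers (UMIs, counts of captured transcript ends) in vehicle 2, niacin 1 and niacin 2. Of 6947 barcodes, 5528 had at least 200 genes and at most 20% mitochondrial UMIs. Libraries shared barcodes: 924 of 5571 distinct barcodes occurred in more than 1 library, with the deepest copy a median 15.7 times deeper than the next, so each was kept only where it was deepest. This left 4343 cells. They were put into classes by UMIs of lineage marker genes, none of them a member, giving 2159 microglia-like cells, 328 monocyte- and macrophage-like cells, 136 nonclassical monocyte-like cells, 114 neutrophil-like cells, 499 T cell-like cells, 101 B cell-like cells and 283 choroid plexus-like cells. These 7 classes had at least 10 cells in every library. The monocyte- and macrophage-like class was uneven, with 285 vehicle cells against 16 and 27 niacin cells. Of the 10 leading genes of each class by fold, 1 (choroid plexus-like, led by *Ttr*) to 9 (neutrophil-like) were its own markers and none was a marker of another class, and *Nr4a1* was the only member among any class's 10 leading genes.

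Microglia-like cells carried by far the highest summed level of the 10 genes among these 7 classes. They held 14432, 18943 and 17080 CPM (UMIs per 1000000 UMIs of the class in a library) in vehicle 2, niacin 1 and niacin 2. Monocyte- and macrophage-like cells held 3476, 3554 and 5400, nonclassical monocyte-like cells 4899, 5158 and 4612, and T cell-like cells 3337, 3403 and 2942 CPM. Choroid plexus-like cells held 461, 322 and 421 CPM. For 9 of the 10 genes the mean over libraries was highest in microglia-like cells. For 8 of those 9 every microglia-like value lay above every value of the next class, the exception being *Dusp1*. The share of all genes with such an order was not counted, so these counts describe the members only. *Nr4a1* was the tenth gene, and its highest class was nonclassical monocyte-like cells. Between microglia-like and monocyte- and macrophage-like cells, which asks how resident and infiltrating phagocytes differ, 9 members were higher and 1 was lower at an edgeR adjusted p under 0.05, where 23.0% of all 8624 genes tested were higher and 21.0% lower (43.9% either way). The median log2 fold change was 1.47 over the members and 0.12 over all genes. Against the mean of T and B cell-like cells, 9 members were higher and none was lower, where 28.2% of all genes were higher and 18.0% lower (46.2% either way), with medians of 2.76 and 0.14.

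**Figure D1:**
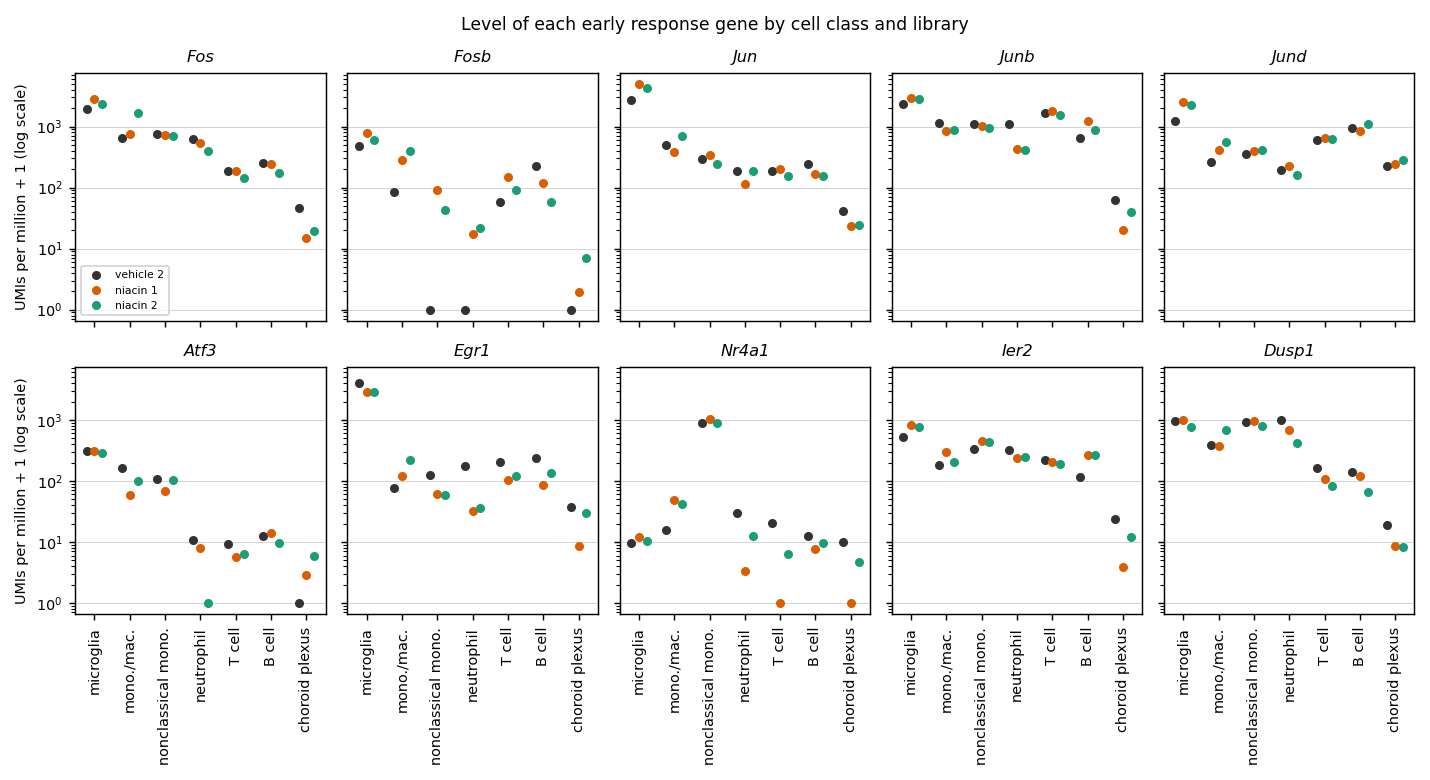
Level of each of the 10 genes in CPM plus 1 (vertical axis, log scale) in 7 cell classes (horizontal axis), with 1 point per library. For 9 genes microglia-like cells have the highest mean, *Nr4a1* stands at 891 to 1032 CPM in nonclassical monocyte-like cells alone, and choroid plexus-like cells have the lowest mean for all genes but *Jund*.

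*Fos*, the founding AP-1 subunit, was at 1942, 2832 and 2366 CPM in microglia-like cells. It was at 654, 758 and 1665 in monocyte- and macrophage-like cells, at 751, 721 and 687 in nonclassical monocyte-like cells and at 615, 537 and 389 in neutrophil-like cells. The 2 lymphoid classes were lower, with 140.0 to 186 in T cell-like and 174 to 251 in B cell-like cells. The microglia-like values lay above all others, while monocyte- and macrophage-like and nonclassical monocyte-like cells overlapped. *Fos* was 2.34-fold higher in microglia-like than in monocyte- and macrophage-like cells (log2 fold change 1.23, standard error 0.28, edgeR adjusted p = 0.000667), and 11.8-fold higher than in T and B cell-like cells (3.56, standard error 0.24, adjusted p = 4.96e-13). Without niacin replicate 1 the first difference was 0.77 with an adjusted p of 0.115.

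*Fosb*, which encodes a FOS paralogue that accumulates with repeated stimulation as a truncated form, was at 477, 777 and 600.3 CPM in microglia-like cells. Monocyte- and macrophage-like cells had 84.1, 280.0 and 390, with the vehicle value the lowest of the 3. Nonclassical monocyte-like cells had 0 UMIs in vehicle 2, with a 95% counting interval that reaches 20.8 CPM, and 89.3 and 42.3 CPM in the niacin libraries. Neutrophil-like cells also had 0 UMIs in vehicle 2, with 16.5 and 20.7 CPM in the others. *Fosb* was 2.79-fold higher in microglia-like than in monocyte- and macrophage-like cells (log2 1.48, standard error 0.39, edgeR adjusted p = 0.0027), a call that the fit without the library block did not make (adjusted p = 0.0593). It was 5.09-fold lower in nonclassical monocyte-like than in monocyte- and macrophage-like cells (log2 fold change -2.35, standard error 0.48, edgeR adjusted p = 0.00105), lower in 3 of 3 libraries. That call was not made with classes taken from clusters, where the adjusted p was 0.091.

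*Jun*, the main partner of FOS in AP-1, showed a wide gap between microglia-like cells and the other fitted classes. Basophil- and mast cell-like cells, which were not fitted, had 2039, 4950 and 3788 CPM in vehicle 2, niacin 1 and niacin 2. Microglia-like cells had 2690.0, 4877 and 4327 CPM. Monocyte- and macrophage-like cells had 499, 381 and 686, nonclassical monocyte-like cells 294, 337 and 242, and neutrophil-like, T cell-like and B cell-like cells 115 to 239. None of the ranges of these fitted classes reached the microglia-like one. *Jun* was 7.39-fold higher in microglia-like than in monocyte- and macrophage-like cells (log2 2.89, standard error 0.28, edgeR adjusted p = 1.68e-09) and 20.9-fold higher than in T and B cell-like cells (log2 4.39, adjusted p = 4.25e-15). It was 1.90-fold lower in nonclassical monocyte-like than in monocyte- and macrophage-like cells (adjusted p = 0.0223), a call that was lost without niacin replicate 2 (adjusted p = 0.496) and in the fit without the library block (adjusted p = 0.0672).

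*Junb* was the member that lymphoid cells shared most with microglia-like cells. JUNB is an AP-1 subunit that takes part in T helper cell differentiation. T cell-like cells had 1679, 1809 and 1521 CPM, below the 2302, 2904 and 2852 of microglia-like cells and above every value of nonclassical monocyte-like cells (945 to 1112) and of monocyte- and macrophage-like cells (830.5 to 1157). B cell-like cells ranged from 638 to 1228 and neutrophil-like cells from 409.9 to 1083. The microglia-like excess over T and B cell-like cells was 2.06-fold (log2 1.04, standard error 0.24, edgeR adjusted p = 0.000657), the smallest of the 9 called there. *Jund*, whose product is a more steadily present JUN protein that can restrain growth, was at 1211, 2526 and 2263 CPM in microglia-like cells. B cell-like cells came next with 934, 847 and 1089, followed by T cell-like cells with 611, 639 and 631. *Jund* was also the one member with a clear level in choroid plexus-like cells, at 228, 245 and 279 CPM. It was 4.88-fold higher in microglia-like than in monocyte- and macrophage-like cells (log2 2.29, standard error 0.24, edgeR adjusted p = 9.09e-09).

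*Egr1*, a growth-factor-induced zinc finger factor, was almost a microglia-like gene among these classes. Microglia-like cells had 3996, 2870 and 2843 CPM, with vehicle 2 the highest. All 18 values of the other 6 classes lay between 7.57 and 239 CPM. Monocyte- and macrophage-like cells had 74.4, 121 and 219, and nonclassical monocyte-like cells 124, 60.3 and 58.8. *Egr1* was 24.8-fold higher in microglia-like than in monocyte- and macrophage-like cells (log2 4.63, standard error 0.37, edgeR adjusted p = 4.14e-11), the largest difference of any member in that comparison, and 22.2-fold higher than in T and B cell-like cells (log2 4.47, standard error 0.27, adjusted p = 7.74e-14).

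*Atf3*, which encodes a stress-induced repressor and activator, divided mononuclear phagocytes from the rest. Microglia-like cells had 312, 310.4 and 289 CPM, monocyte- and macrophage-like cells 161, 57.9 and 97.5, and nonclassical monocyte-like cells 107, 67.0 and 103. Neutrophil-like, T cell-like, B cell-like and choroid plexus-like cells lay between 0 and 13.1 CPM, with 9 UMIs or fewer in each library. The first 3 classes did not overlap with the other 4. Neutrophil-like cells were lower than monocyte- and macrophage-like cells (log2 fold change -3.70, standard error 0.59, edgeR adjusted p = 1.37e-05), on 1, 3 and 0 neutrophil-like UMIs.

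The neutrophil-like comparison split the members. Neutrophils are short-lived granulocytes that arrive with much of their RNA already made. With TMM scaling *Dusp1* was higher in them than in monocyte- and macrophage-like cells (2.42-fold, log2 1.27, standard error 0.26, edgeR adjusted p = 0.000372), in 2 of 3 libraries, and so was *Ier2* (2.06-fold, log2 1.04, adjusted p = 0.00784), also in 2 of 3. Both calls were also made with DESeq2's size factors, and neither with scaling by total UMIs. In CPM the means were 697 against 479 for *Dusp1* and 267 against 228 for *Ier2*, and scaled by total UMIs the log2 fold changes were 0.43 (adjusted p = 0.206) and 0.20 (adjusted p = 0.599). *Atf3*, *Fosb* and *Jun* were lower, and *Fos*, *Junb*, *Jund*, *Egr1* and *Nr4a1* did not pass the test. Of all genes, 14.6% were higher and 22.2% lower (36.8% either way), with a median log2 fold change of -0.41. Scaled by total UMIs *Fos*, *Jund* and *Egr1* were lower too, while 7.55% of all genes were higher and 48.1% lower, with a median of -1.23. Leaving out niacin replicate 2 left 3 members called, with *Ier2* and *Jun* lost (adjusted p = 0.138 and 0.084). Without niacin replicate 1 *Jun* was lost (adjusted p = 0.0874), and without vehicle replicate 2 *Egr1* and *Nr4a1* were lower too (adjusted p = 0.00105 and 0.0448).

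*Dusp1* was spread over the myeloid classes, and *Ier2* over myeloid and lymphoid classes. *Dusp1* stood at 967, 1010.1 and 769 CPM in microglia-like cells, at 920.1, 963 and 804 in nonclassical monocyte-like cells and at 995, 676 and 421 in neutrophil-like cells. These 3 classes overlapped. Monocyte- and macrophage-like cells had 391, 372 and 674, above the 65.1 to 164 of T and B cell-like cells. *Dusp1* was 1.86-fold higher in microglia-like than in monocyte- and macrophage-like cells (log2 0.90, standard error 0.26, edgeR adjusted p = 0.00538), and 0.52 on the log2 scale with an adjusted p of 0.294 without niacin replicate 1. *Ier2* was at 525, 825 and 762 CPM in microglia-like cells, 339, 456 and 428 in nonclassical monocyte-like cells, and 114 to 322 across neutrophil-like, monocyte- and macrophage-like, T cell-like and B cell-like cells, each overlapping with its neighbour in the order.

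*Nr4a1* followed a different order from the other 9 genes. In nonclassical monocyte-like cells it was at 903, 1032 and 891 CPM (160, 462 and 379 UMIs), a mean of 942 ± 78.0 (SD, n = 3 libraries). Monocyte- and macrophage-like cells had 14.8, 48.3 and 40.6 CPM, and microglia-like cells 8.76, 11.1 and 9.50. Neutrophil-like, T cell-like, B cell-like and choroid plexus-like cells had between 0 and 29.3 CPM. No library of another class came near the nonclassical values, and the 6 other classes overlapped with their neighbours in the order. *Nr4a1* was 34.0-fold higher in nonclassical monocyte-like than in monocyte- and macrophage-like cells (log2 5.09, standard error 0.46, edgeR adjusted p = 7.06e-09). Against the mean of the 6 other classes it was 83.1-fold higher (log2 6.38, standard error 0.27, adjusted p = 2.93e-17), in 3 of 3 libraries. It was the one member lower in microglia-like than in monocyte- and macrophage-like cells, by 1.42 on the log2 scale (log2 fold change -1.42, standard error 0.51, edgeR adjusted p = 0.0253), on 29, 10 and 10 UMIs in the latter, and the adjusted p was 0.141 without niacin replicate 2.

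**Figure D2:**
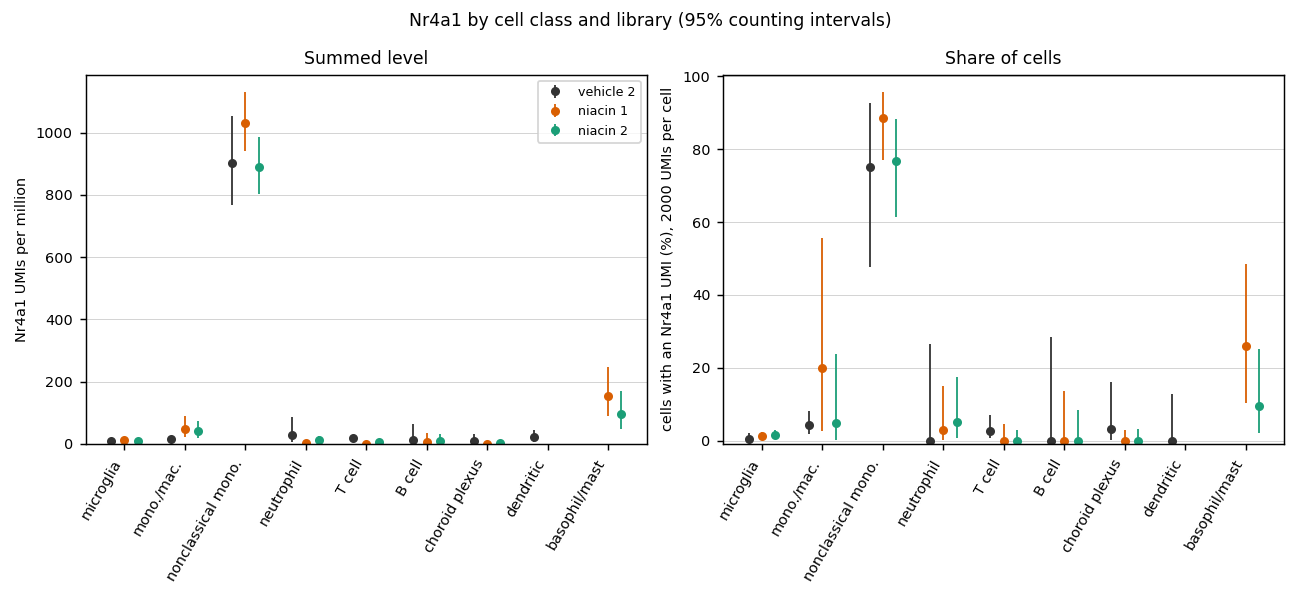
*Nr4a1* in CPM of the summed class (left) and as the percent of cells with an *Nr4a1* UMI after thinning to 2000 UMIs per cell (right), by class and library, for libraries with at least 10 cells of the class. Bars are 95% counting intervals, and nonclassical monocyte-like cells stand at 891 to 1032 CPM and 75.0 to 88.7% of cells.

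The remaining members were mixed in nonclassical monocyte-like cells. Against monocyte- and macrophage-like cells, *Nr4a1* and *Dusp1* (1.76-fold, log2 0.82, standard error 0.26, edgeR adjusted p = 0.0339) were higher and *Fosb* and *Jun* lower, where 6.28% of all genes were higher and 7.11% lower (13.4% either way). Scaled by total UMIs these shares were 7.96% and 5.62%, with the same number of members called. The other 6 members did not pass, with log2 fold changes of -0.83 (*Egr1*) to 0.77 (*Ier2*, adjusted p = 0.080). The median was -0.23 over the members and -0.16 over all genes. The *Dusp1* call was lost under 7 of the other settings, among them leaving out the replicate block (adjusted p = 0.0816) or niacin replicate 1 (adjusted p = 0.437). Leaving out vehicle replicate 2 gave 7 calls in place of 4, adding *Ier2* as higher (adjusted p = 0.00184) and *Fos* and *Egr1* as lower (adjusted p = 0.00361 and 9.4e-05). Without the block 2 members were called. Against the mean of all other classes, 5 members were higher (*Nr4a1*, *Atf3*, *Dusp1*, *Ier2* and *Fos*) and 2 lower (*Egr1* and *Jund*), where 18.8% of all genes were higher and 6.89% lower (25.7% either way), and 28.4% and 3.36% scaled by total UMIs. *Jund* was lost there with that scaling (adjusted p = 0.077), which added *Junb* as higher (adjusted p = 0.0342), and also without either niacin library (adjusted p = 0.0974 and 0.17) and *Egr1* without niacin replicate 2 (adjusted p = 0.0973).

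**Figure D3:**
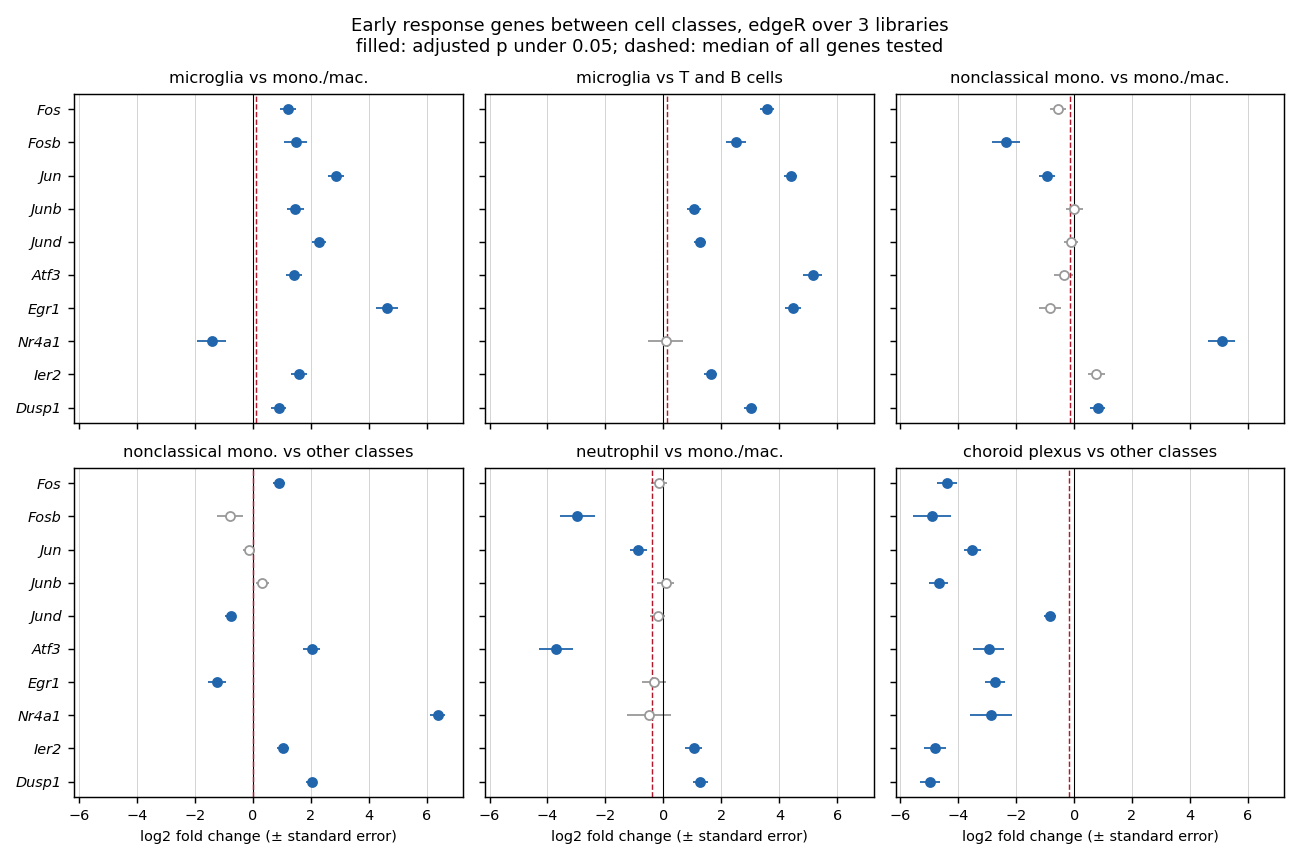
Log2 fold change of the 10 genes (horizontal axis, bars are standard errors) in 6 comparisons between cell classes, from edgeR with TMM scaling over 3 libraries, with filled points at an adjusted p under 0.05 and the median of all genes dashed. *Nr4a1* points the opposite way to the other genes between microglia-like and monocyte- and macrophage-like cells (-1.42), and all 10 genes are lower in choroid plexus-like cells.

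Choroid plexus-like cells, the epithelium that makes cerebrospinal fluid, had all 10 members lower than the mean of the other classes, where 31.3% of all genes were lower and 31.6% higher (63.0% either way). The log2 fold changes ran from -0.83 for *Jund* (standard error 0.19, edgeR adjusted p = 0.000464) to -4.98 for *Dusp1* (standard error 0.34, adjusted p = 2.44e-13), with a median of -3.95 over the members and -0.18 over all genes. *Fos* was at 44.7, 14.2 and 18.1 CPM, on 10, 15 and 15 UMIs. The cells were not shallow, with medians of 6004, 7252 and 5812 UMIs among those with at least 2000. Heat shock genes went the other way in these cells, with 7 of 10 higher and none lower, *Hsp90aa1* by 2.25 on the log2 scale (standard error 0.19, edgeR adjusted p = 3.91e-11). Erythroid-like cells, of which vehicle 2 had 3, niacin 1 had 38 and niacin 2 had 36, held 185, 268 and 133 CPM over the 10 genes, of which *Jund* was 106, 239 and 113, on 7 UMIs over all 10 genes in vehicle 2.

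The levels rested on most microglia-like cells rather than on a few. With every cell thinned to 2000 UMIs and shallower cells left out, *Fos* was detected in 75.9%, 80.2% and 80.5% of the microglia-like class (exact 95% binomial intervals from 70.3 to 80.9% in vehicle 2). The same share was 12.5%, 3.33% and 3.51% in choroid plexus-like cells, from cells of like depth (medians of 7568, 6106 and 6427 UMIs in microglia-like cells before thinning). The part of free RNA in these shares was not estimated. Without thinning the microglia-like shares were 80.4%, 83.7% and 78.6%. The thinning left out 127, 185 and 299 microglia-like cells. For *Egr1* the shares were 92.9%, 92.6% and 94.8% in the microglia-like class against 22.1%, 8.75% and 20.5% among T cell-like cells. For *Junb* they were 91.0%, 92.6% and 95.6% against 86.9%, 88.8% and 86.9%. An *Nr4a1* UMI was found in 12 of 16, 47 of 53 and 33 of 43 nonclassical monocyte-like cells (75.0%, 88.7% and 76.7%), against 0.376%, 1.24% and 1.57% of the microglia-like class.

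**Figure D4:**
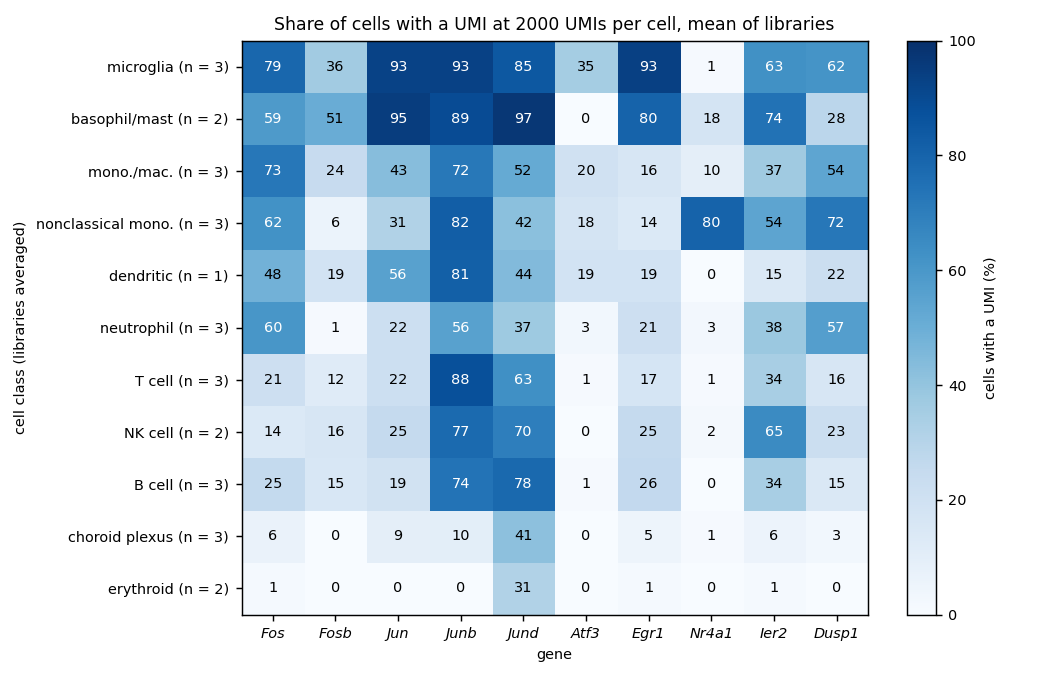
Percent of cells with a UMI of each gene (columns) in each cell class (rows) after thinning to 2000 UMIs per cell, as the mean over libraries with at least 10 such cells (n beside each class). *Jun*, *Junb* and *Egr1* reach 92.9 to 93.4% of microglia-like cells, *Nr4a1* reaches 80.1% of nonclassical monocyte-like cells, and choroid plexus-like and erythroid-like cells are under 10% for all genes but *Jund*.

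Most members were found together in the same microglia-like cells. At 2000 UMIs a microglia-like cell held a median of 6, 7 and 7 of the 10 genes in vehicle 2, niacin 1 and niacin 2, and 80.1%, 89.6% and 90.3% of cells held 5 or more. A T cell-like cell held a median of 3, 2 and 3, and 16 of 145, 11 of 80 and 8 of 122 cells held 5 or more. The tenth of microglia-like cells with most member UMIs held 22.0%, 20.9% and 19.8% of them. Microglia-like cells with a *Fos* UMI held a *Fosb* UMI more often than those without, 41.1% against 15.6% in vehicle 2, 45.6% against 10.2% in niacin 1 and 39.4% against 14.5% in niacin 2. For *Dusp1* the shares were 67.3% against 43.8%, 69.1% against 40.6% and 65.5% against 37.1%. For *Jund* they were 83.2% against 57.8%, 92.3% against 75.0% and 91.4% against 75.0%. These directions were the same in every library at equal depth per cell, and so were those of *Jun*, *Junb*, *Egr1*, *Atf3* and *Ier2*. *Nr4a1* UMIs were in too few microglia-like cells to say whether they went with *Fos*. In vehicle 2 they were in 1 of 202 cells with a *Fos* UMI and 0 of 64 without. The counts were 5 of 517 against 3 of 128 in niacin 1 and 8 of 513 against 2 of 124 in niacin 2. Cells of 1 pool are not replicates, so no test was made. Only 4, 6 and 10 nonclassical monocyte-like cells lacked an *Nr4a1* UMI at this depth, too few for the same description.

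Across the 21 sums of 7 classes and 3 libraries, the genes outside the members whose log2(CPM + 10) was most like that of *Fos* were *Zfp36*, whose product destabilises cytokine mRNAs (Pearson r = 0.96), *Tm6sf1*, *Tnfaip8l2*, *Rgs2* and *Sh3glb1* (r = 0.93 to 0.95). For *Nr4a1* they were *Adgre4*, *Treml4*, *Cd300e*, *Cd36* and *Eno3* (r = 0.94 to 0.97). *Adgre4*, *Treml4* and *Eno3* were among the 6 markers that set the nonclassical class, while *Cd300e* and *Cd36* were not. Among the members the closest pairs were *Fos* with *Dusp1* (r = 0.94) and *Ier2* with *Junb* (r = 0.93), and *Nr4a1* had r between -0.14 and 0.51 with the others. The points share libraries and cells of the same pools, so these values describe the pattern and were not tested.

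The wider early response program followed the members in part. Of 22 tested genes from a list of other early response genes, 13 were higher and 3 lower in microglia-like than in monocyte- and macrophage-like cells (median log2 fold change 1.06, against 0.12 over all genes, of which 23.0% were higher and 21.0% lower). *Btg2*, an antiproliferative gene, was higher by 3.40 on the log2 scale (standard error 0.26, edgeR adjusted p = 2.05e-11), *Rhob*, a small GTPase, by 4.03, *Zfp36* by 1.83 and *Nfkbia*, the NF-kappaB inhibitor, by 0.73. *Egr3* had 32.7, 36.2 and 43.0 CPM in microglia-like cells and 2, 0 and 0 UMIs in monocyte- and macrophage-like cells. In nonclassical monocyte-like cells 12 of the 22 were higher than the mean of the other classes and none lower, where 18.8% of all genes were higher and 6.89% lower, among them *Klf4* (log2 5.63, standard error 0.33, adjusted p = 1.52e-13), a factor of monocyte differentiation, and *Dusp5*, a phosphatase of nuclear ERK (log2 3.70, standard error 0.23, adjusted p = 2.24e-13). *Dusp5* had 243, 219 and 228 CPM there against 39.2, 29.0 and 12.2 in monocyte- and macrophage-like cells. Against that class alone 5 of the 22 were higher, *Klf4* and *Dusp5* among them, and 2 lower, where 6.28% of all genes were higher and 7.11% lower.

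Of 15 tested kinases and factors upstream, 3 were higher and 2 lower in microglia-like than in monocyte- and macrophage-like cells, shares under the 23.0% and 21.0% of all genes. Among them were *Creb1* at a log2 fold change of 0.79 (adjusted p = 0.0296) and *Mapkapk2*, a kinase below p38, at -1.91 (adjusted p = 3.23e-06, edgeR). In nonclassical monocyte-like cells 9 of these 15 were higher than the mean of the other classes (18.8% of all genes) and none lower, with *Mapkapk2* at 2.14 and *Mapk3*, which encodes ERK1, at 1.21. Against monocyte- and macrophage-like cells alone 2 of the 15 were higher, *Mapk3* and *Mkl1*, and none lower. There 6.28% of all genes were higher and 7.11% lower, and *Mapkapk2* was not called. Of 11 other AP-1 and ATF partners, 6 were higher and 3 lower in microglia-like than in monocyte- and macrophage-like cells, *Maf* by 1.85 and *Atf4* by 1.30 among those higher and *Batf* by -2.27 among those lower. Of 10 heat shock genes, 1 was higher (*Dnajb1*, by 1.39) and 7 were lower, among them *Hspa8* by -1.21 and *Hsp90aa1* by -1.10.

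The niacin libraries could be set beside only 1 vehicle library, so niacin and the difference between libraries cannot be told apart and no test was made. In microglia-like cells 6 of the 9 members at 50 CPM or more were higher in both niacin libraries than in vehicle 2 and 2 lower, where 38.5% of such genes were higher in both and 51.2% lower. *Nr4a1* had 19, 45 and 42 UMIs, and the counting interval of its log2 ratio included 0 in both niacin libraries. *Jund* was at 1211 CPM in vehicle 2 against 2526 and 2263, log2 ratios of 1.06 (95% counting interval 1.00 to 1.12) and 0.90. *Jun* was at 2690.0 against 4877 and 4327, and *Ier2* at 525 against 825 and 762. *Egr1* ran the other way, at 3996 against 2870 and 2843 (log2 ratios of -0.48 and -0.49). Between the 2 niacin libraries the log2 ratio of niacin 2 to niacin 1 ran from -0.39 (*Dusp1*) to -0.01 (*Egr1*). On the log2(CPM + 10) scale, used for all ratios of the niacin mean, the median log2 ratio of the members at 50 CPM or more was 0.42, against -0.06 for all such genes, and no member reached 2-fold, where 0.677% of genes were past it upward and 0.903% downward. The vehicle library also had the highest median share of mitochondrial UMIs. It was 3.14% against 1.84% and 2.37% in microglia-like cells and 5.12% against 2.71% and 3.45% over all cells, and its part in these ratios was not tested.

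**Figure D5:**
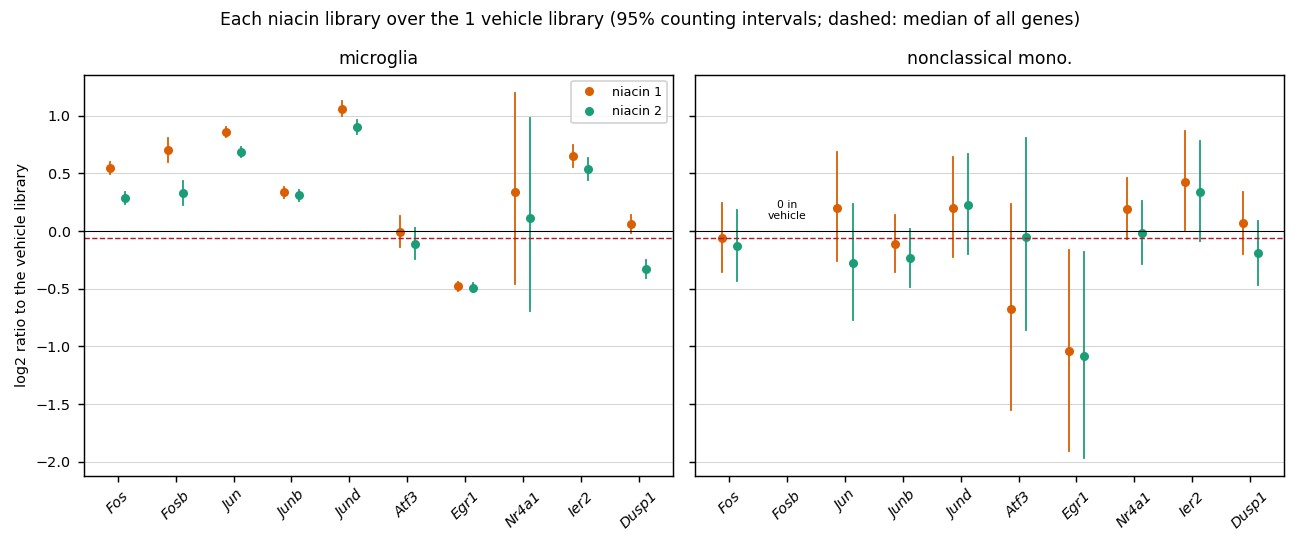
Log2 ratio of each niacin library to the vehicle 2 library (vertical axis) for the 10 genes in microglia-like (left) and nonclassical monocyte-like cells (right), with 95% counting intervals and the median of all genes dashed at -0.06. In microglia-like cells *Jun* and *Jund* lie above 0.6 and *Egr1* below -0.4 in both niacin libraries, and in nonclassical monocyte-like cells *Nr4a1* lies at 0.19 and -0.02.

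The other classes were set against the same vehicle library. *Nr4a1* in nonclassical monocyte-like cells was at 903 CPM in vehicle 2 against 1032 and 891, and each counting interval of the ratio included 0. No member at 50 CPM or more reached 2-fold there on that scale, where 1.89% of genes were past it upward and 3.70% downward, and *Egr1* came closest, at 124 against 60.3 and 58.8. *Egr1* in T cell-like cells was at 207 against 102 and 122, and in neutrophil-like cells at 176 against 30.6 and 34.5. *Junb* in neutrophil-like cells was at 1083 against 433 and 409.9, and with *Egr1* was past 2-fold lower, where 13.5% of genes were. No member at 50 CPM or more was past 2-fold higher in that class, where 2.53% were. Vehicle 2 had 26 neutrophil-like cells with a median of 1049.5 UMIs, against medians of 6079 in niacin 1 and 9148 in niacin 2. *Egr1* rested on 18, 13 and 15 neutrophil-like UMIs. In monocyte- and macrophage-like cells *Fosb* and *Egr1* were past 2-fold higher, where 12.5% of genes were (14.5% were past it lower), on 16 and 27 niacin cells. In B cell-like cells *Ier2* was past 2-fold higher, where 7.33% of genes were, and *Fosb* and *Egr1* past 2-fold lower, where 18.7% were, on 21 vehicle cells. No member at 50 CPM or more was past 2-fold in T cell-like cells, where 1.37% of genes were higher and 6.86% lower, or in choroid plexus-like cells, where 3.06% were higher and 9.93% lower.

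Among microglia-like cells the members also differed with depth. The 611 cells under 2000 UMIs were summed per library and set against the 1548 deeper ones, a comparison chosen after the data were seen. Of the 10 members 7 were higher in the shallow cells, where 9.58% of 9378 genes were. Their log2 fold changes ran from 0.41 (*Jun*) to 1.42 (*Nr4a1*, standard error 0.53, edgeR adjusted p = 0.035). *Nr4a1* had only 19, 45 and 42 UMIs over all microglia-like cells of vehicle 2, niacin 1 and niacin 2. The shallow cells also had higher median shares of mitochondrial UMIs, 6.18%, 3.87% and 6.67% against 2.46%, 1.58% and 1.82%, whose part in these differences was not tested. *Fos* was lower by 0.61 on the log2 scale (log2 fold change -0.61, standard error 0.14, edgeR adjusted p = 0.000135) and *Dusp1* by 0.39 (log2 fold change -0.39, adjusted p = 0.0323), where 13.2% of genes were lower and 22.8% passed either way. With no replicate block edgeR called 0 members at the adjusted threshold, with 6 at an unadjusted p under 0.05, and 4 and 3 members were called without niacin replicate 1 and without niacin replicate 2.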

How the data were processed

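Live cells were sequenced in 3 libraries of pooled mouse brains. The authors aligned the reads with Cell Ranger 3.1 (STAR) to mm10 and deposited UMI counts per gene and barcode, not normalized. Cells with at least 200 genes and at most 20% mitochondrial UMIs were kept, a barcode shared by libraries only where it was deepest. Classes needed at least 2 markers of 1 list and a minimum share of marker UMIs, set on the marker distributions. Cells fitting the monocyte and macrophage list and also the nonclassical, dendritic, neutrophil, T or natural killer cell list went to the latter. Cells fitting both the T and natural killer cell lists went to the one with more marker UMIs. Cells still fitting several lists were left out, and no doublet caller was run. Counts were summed per class and library and fitted in edgeR 4.0.16 (R 4.3.3, TMM, filterByExpr, quasi-likelihood F test, Benjamini-Hochberg adjustment over all genes), with class and library as terms. Each library gives every class from the same pool of mice, so the library is the pairing and entered as the replicate block. Classes with under 10 cells in a library, natural killer cells among them, were not fitted. P-values measure the spread left between class sums after the class and library terms, estimated over all classes of a fit together. It rests on 3 pools and may be technical. Any difference of niacin from vehicle that is particular to a class is part of it. Intervals cover counting error only. Alternatives used DESeq2 1.42.0 and Seurat 5.3.0 clusters. The fit was tested on simulated data. Niacin was not tested against vehicle, with 1 vehicle library. A comparison of activated with other microglia-like cells was not run, since 9 of 1548 cells were activated by its rule. The members and gene lists were chosen with earlier results of these data known. Genes outside the members were named by rule: of each list's called genes, the 3 of highest mean and the 2 of largest change per comparison.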

Additional observations from a re-analysis of the deposited data

How the results depend on the processing

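No called value was reversed under another setting, and of the values for single members 1062 kept their side of it, 84 lost a call, 18 gained one and 6 ratios moved. Genes called fell with fewer UMIs: thinned to 2000 UMIs per cell, the nonclassical class against monocyte- and macrophage-like cells had 498, where 1155 were called before, 819 in place of 2216 for nonclassical monocyte-like cells against the others, 1401 in place of 3789 and 1708 in place of 3987 for microglia-like cells against monocyte- and macrophage-like and against lymphoid cells, 1068 in place of 3176 for neutrophil-like and 1879 in place of 5430 for choroid plexus-like cells (3615 with shared barcodes left out). Scaled by total UMIs in place of TMM, the neutrophil-like comparison had 4801 genes called, *Ier2* and *Dusp1* lost theirs, and the median of all genes moved from -0.41 to -1.23. With no replicate block the first comparison had 722 genes and 2 members called in place of 4, and the comparison of shallow with deep microglia-like cells 935 genes in place of 2137 and 0 members in place of 9 (6 at an unadjusted p under 0.05); apart from *Jun* and *Dusp1* in the first, *Fosb* between microglia-like cells and monocytes and macrophages and these shallow-cell calls, the block changed no call of a member. Leaving out 1 library gave 3 to 7 members and 514 to 1677 genes for that first comparison, 1453 to 2601 genes against all others, 3 to 7 members and 1936 to 3173 genes for neutrophil-like cells, and 3 to 6 members and 784 to 1821 genes for shallow microglia-like cells. The shallow comparison also gave 5 members (1365 genes) with all barcodes kept, 5 members with shared barcodes left out, 2 members (1232 genes) with doubled class cuts, 4 members with no filter on low counts and 954 genes with DESeq2. The 2-fold niacin ratios among monocyte- and macrophage-like cells held 1 member with all barcodes kept, 7 with shared barcodes left out and 4 without the deepest 5% of cells, against 2, while nonclassical monocyte-like and T cell-like cells gained 1 each in the last and in the second setting. The mean share of microglia-like cells with a *Fos* UMI (78.9%) was 65.6% at 1000 and 88.1% at 4000 UMIs, and that of nonclassical monocyte-like cells with *Nr4a1* (80.1%) was 57.8%, 90.1% and, unthinned, 89.3%. Depth sets these shares by construction, and the cause of the other differences was not tested. *Nr4a1* in nonclassical monocyte-like cells and the 9 members called between microglia-like and lymphoid cells kept their calls in every setting run. With shared barcodes left out, the 3 comparisons with monocyte- and macrophage-like cells could not be fitted, nor could the shallow one after thinning or from clusters. The depth limits *Nr4a1* outside nonclassical monocyte-like cells, *Atf3* in granulocytes and lymphoid cells, and every value of the 16 and 27 niacin monocyte- and macrophage-like cells. Class cuts halved or doubled, the scaling by total UMIs and the shallow comparison, were chosen after seeing the data.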

Other observations

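Basophil- and mast cell-like cells (5, 30 and 35 cells in vehicle 2, niacin 1 and niacin 2) were too few in the vehicle library for the fit, and their leading genes were the mast cell proteases *Mcpt2*, *Tpsb2*, *Cpa3* and *Cma1*. Their summed level of the 10 genes, 13700, 19120 and 16051 CPM (UMIs per 1000000), overlapped with that of microglia-like cells (14432 to 18943). *Jun* was at 2039, 4950 and 3788 CPM, *Egr1* at 3505, 2868 and 2839 and *Fosb* at 1784, 1366 and 1018. *Atf3* had 0 UMIs in all 3 libraries, while microglia-like cells had 289 to 312 CPM. *Nr4a1* was at 127, 154 and 94.9 CPM, on 2, 17 and 11 UMIs. With each cell thinned to 2000 UMIs, *Jund* was found in 96.9% and *Jun* in 94.7% of these cells as means over the niacin libraries.

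Natural killer cell-like cells (75, 8 and 14 cells) had *Junb* at 1458, 2038 and 1540 CPM, against 1521 to 1809 in T cell-like cells. Their *Nr4a1* was at 48.6, 52.3 and 12.3 CPM. Dendritic cell-like cells (33, 3 and 8 cells) had *Nr4a1* at 20.9, 35.1 and 64.9 CPM and *Fos* at 292, 245 and 1070.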
